A study of Homo sapiens with 66 samples.

Results

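The cytosolic ribosome carries out protein synthesis, and the messenger RNAs of its proteins are among the most abundant of any dividing cell. Protein-coding genes were taken whose symbol is RPLP0, RPLP1, RPLP2 or RPSA, or begins with RPL or RPS and a number, without RPS6K kinases and symbols ending in L1. That rule gave 88 genes of the 58051 counted, 52 with large subunit and 36 with small subunit symbols. Of these, 77 are the usual genes of ribosomal proteins. The other 11 are 7 genes that resemble another member (RPL3L, RPL10L, RPL36AL, RPL39L, RPS27L, RPS4Y1 and RPS4Y2), the read-through genes RPL17-C18orf32, RPL36A-HNRNPH2 and RPS10-NUDT3, and RPS19BP1, which is named for binding a ribosomal protein and is not one itself. Ribosomal components such as those made from FAU and RACK1 have other symbols and are given apart.

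Ribosomal protein genes are transcribed by RNA polymerase II, spliced and exported to the cytoplasm like other messenger RNAs. Their transcripts are long-lived, and most begin with a C and a run of pyrimidines, the terminal oligopyrimidine (TOP) tract, through which growth signals control their translation. NXF1 is the export receptor that carries most messenger RNA through the nuclear pore. GANP, encoded by MCM3AP, is the scaffold of TREX-2, a complex that hands messenger RNA to the pore. TPR, NUP153 and NUP50 form the nuclear basket of the pore, and RANGAP1 stimulates the GTPase RAN.

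RNA was measured in DLD-1, a line from a human colorectal cancer. Both alleles of 1 gene carried the auxin-inducible degron AID, which leads to destruction of the tagged protein once auxin is added. Per the labels, the tag also held the fluorescent protein NeonGreen for TPR, NUP153, NUP50 and RANGAP1, FLAG for NXF1 and HA for GANP. The ubiquitin ligase subunit TIR1, which auxin joins to the tag, came from the RCC1 locus in the tagged lines, so their untreated controls carry it too. Each line was compared with its own untreated libraries, 3 against 3: AID-TPR after 2 h of 1 mM auxin, AID-TPR of a further set labelled old after 2 h and 8 h, NUP153-AID and RANGAP1-AID after 2 h and 8 h, NUP50-AID after 3 h and 9 h, AID-NXF1 after 2 h, AID-GANP after 3 h and parental DLD-1, without a degron, labelled auxin for 2 h. AID-TPR cells were also treated for 2 h with actinomycin D (ActD), which blocks transcription, alone or with auxin. ActD was set against untreated old AID-TPR, and ActD with auxin against ActD. Lines were tagged clones. The study's methods call the libraries of a group independent biological replicates, and the labels do not say which were grown together.

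The 66 libraries held 18943661 to 55411411 counts. EPCAM, CDH1, KRT8, KRT18, KRT19, CDX2 and VIL1, genes of colorectal epithelium, had counts in every library, while DCN and COL3A1, genes of fibroblasts, were at 0 in 52 and 45 libraries. The RNA of the 6 tagged genes lay between 38.6 and 534 CPM (counts per gene scaled to 1 common library total) over all libraries, but a degron acts on the protein, so these levels check no label. CYP1A1, a gene switched on through the aryl hydrocarbon receptor, was higher after 2 h to 3 h of auxin in every tagged line, with log2 fold changes of 1.88 to 6.68. In DLD-1 cells it was lower in the libraries labelled auxin, 12.7 against 184 CPM (log2 fold change -3.84), so the labels of the parental libraries are in doubt and no direction is drawn from them.

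A TOP tract is shown at the starts of the members on which the results turn, since it is the sequence feature these genes share. Starts were taken from RefSeq (GRCh38.p14), in which 69 of the 88 members had an entry. Each line gives 10 bases before the start and the first 20 transcribed bases, which lie in exon 1, 5′ to 3′, with the uninterrupted run of pyrimidines from a C at the first base in capitals. RPL13, RPL31, RPL27 and RPL39 lead the results in AID-NXF1 and ActD; RPL11, RPLP0, RPS12, RPS13 and RPS25 rose in AID-NXF1, AID-GANP and ActD alike; RPL28 and RPL3 stand apart in RANGAP1-AID; RPS6 is the ribosomal protein phosphorylated upon growth signals; RPL36A and RPS27 are set beside their second genes.
RPL13, chr16:89560672-89560701, plus strand: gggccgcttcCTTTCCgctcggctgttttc
RPL31, chr2:101002279-101002308, plus strand: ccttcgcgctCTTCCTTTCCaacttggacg
RPL39, chrX:119791611-119791640, minus strand: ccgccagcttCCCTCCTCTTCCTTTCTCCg
RPL11, chr1:23691796-23691825, plus strand: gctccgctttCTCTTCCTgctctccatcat
RPLP0, chr12:120201092-120201121, minus strand: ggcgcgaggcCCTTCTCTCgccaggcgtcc
RPS12, chr6:132814559-132814588, plus strand: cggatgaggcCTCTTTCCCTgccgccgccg
RPS13, chr11:17077648-17077677, minus strand: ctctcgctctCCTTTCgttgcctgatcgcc
RPS25, chr11:119018324-119018353, minus strand: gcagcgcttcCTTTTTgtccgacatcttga
RPS6, chr9:19380217-19380246, minus strand: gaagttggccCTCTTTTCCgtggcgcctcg
RPL28, chr19:55385922-55385951, plus strand: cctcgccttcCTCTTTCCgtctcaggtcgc
RPL3, chr22:39319604-39319633, minus strand: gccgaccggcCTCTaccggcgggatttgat
RPL27, chr17:42998409-42998438, plus strand: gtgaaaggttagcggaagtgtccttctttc
RPL36A, chrX:101391001-101391030, plus strand: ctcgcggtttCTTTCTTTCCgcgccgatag
RPL36AL, chr14:49620607-49620636, minus strand: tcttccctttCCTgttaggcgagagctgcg
RPS27, chr1:153990752-153990781, plus strand: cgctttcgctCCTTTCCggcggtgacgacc
RPS27L, chr15:63157458-63157487, minus strand: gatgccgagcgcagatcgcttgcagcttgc
A C followed by at least 4 further pyrimidines stood at an annotated start of 48 of 69 members (69.6%) and of 5.14% of all 27305 genes with an entry. The motif CTTTC, which can overlap the tract, lay within 10 bases before to 20 bases after a start, on either strand, in 50.7% of members and in 9.04% of all genes. RPS27 has the tract and its second gene RPS27L does not. RPL36AL has a run of 3 and RPL36A one of 10. RPL27 had no such run and RPL3 one of 4, which says only that these letters are not at the starts listed. Where RefSeq lists several starts the longest run was taken.

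Ribosomal protein genes took 5.18% to 8.91% of all counts in a library, with a median of 6.64%. Per kilobase of merged exons RPS12, RPS2, RPS18 and RPL12 were the highest members in the 24 untreated libraries, with median levels of 3331, 1780, 1637 and 1443 TPM, which are counts per length scaled to 1 common total. On the length of the canonical transcript, a choice made after the data were seen, these stood at ranks 7, 3, 2 and 1. Both orders rest on annotated lengths, and their Spearman correlation across 86 members was 0.716. RPS27L was the lowest of the members that entered the fits on both scales, at a median of 7.27 and 7.37 TPM, against 1256 and 2530 for RPS27. RPL3L, RPL10L and RPL39L, genes known from muscle, testis and other special tissues, had medians of at most 0.116 TPM. These 3, RPS4Y1 and RPS4Y2 did not pass the filter, which asked for over 1 CPM in above 5% of the 60 ActD-free libraries, and 83 members entered the fits over 17812 genes.

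**Figure D1:**
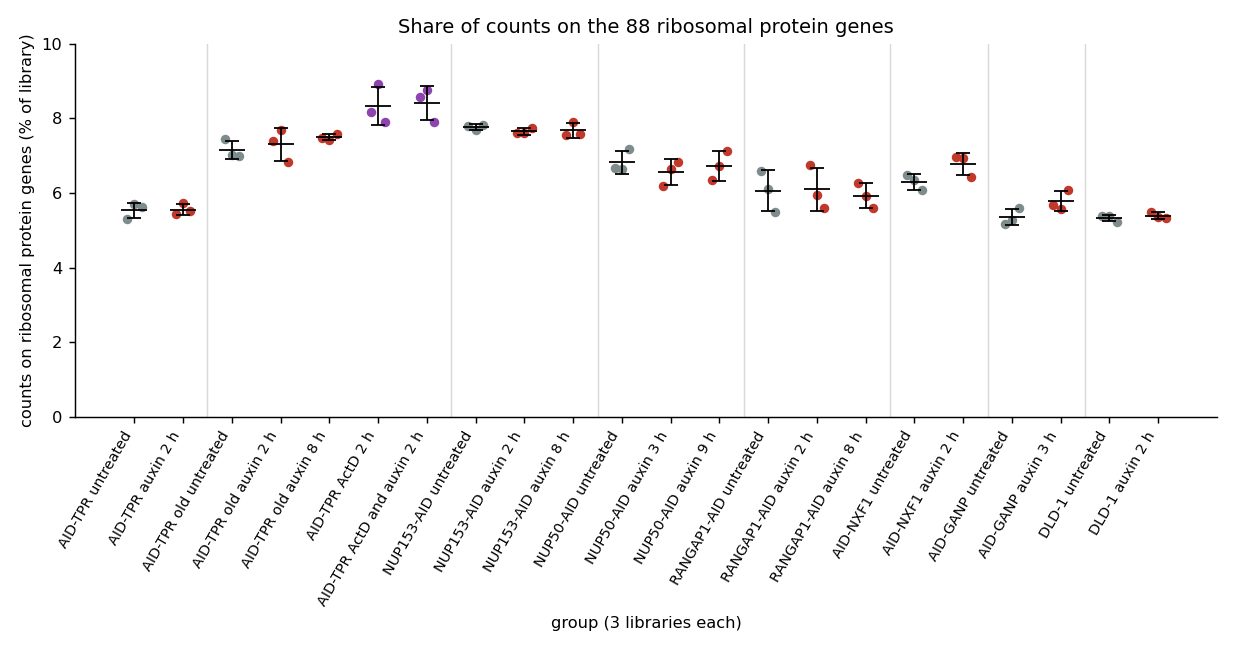
Counts on the 88 ribosomal protein genes as a percent of all counts, each point a library, grey untreated, red auxin and purple ActD, with the mean and SD of 3 libraries. The ActD libraries lie between 7.91% and 8.91%, above the untreated old AID-TPR libraries at 7.01% to 7.44%.

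The label sets of untreated AID-TPR differed in many members, and by far the most in those that overlap a read-through gene. In untreated AID-TPR libraries RPL17 had 712 to 729 CPM in the set without the label old and 45.1 to 50.2 CPM in the old set. RPS10 had 625 to 688 CPM in the first and 16.2 to 17.8 CPM in the second, and RPL36A 181 to 199 and 5.87 to 9.88 CPM. Their read-through genes went the same way: RPL17-C18orf32 had a mean of 703 CPM in the first set, close to that of RPL17, and 0.143 CPM in the old set. How reads that overlap both genes were counted in each set is not given in the sources used here. Of the 83 members that entered the fits, 9 were over 1.5 times higher in the first set, 6 of them over 10 times, and 27 were under 0.67 times the old level. The median ratio over members was 0.718. RPL26, RPS23 and RPS15A were 1.87, 1.75 and 1.67 times higher. ActD, NUP153-AID and NUP50-AID libraries follow the old set in this, and RPL17, RPS10, RPL36A and the read-through genes are uncertain there. Each comparison stays within 1 of these kinds of library.

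**Figure D2:**
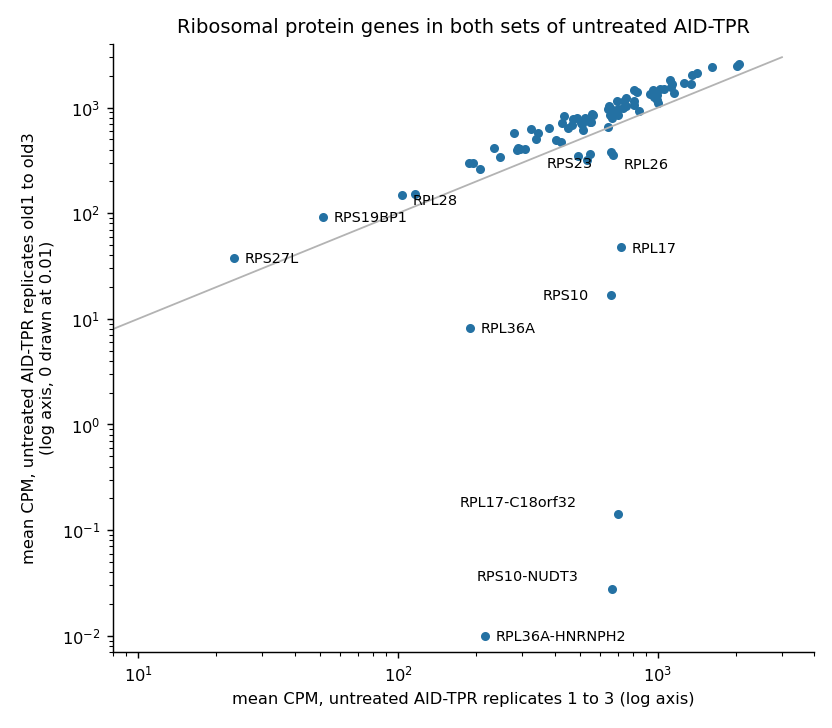
Mean CPM of each member with over 1 CPM in untreated AID-TPR replicates 1 to 3 (x axis, log scale) against the mean in replicates old1 to old3 (y axis, log scale, 0 drawn at 0.01), with the line of equal values. RPL17, RPS10, RPL36A and their 3 read-through genes lie far below the line.

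Many ribosomal protein genes were called after loss of NXF1, loss of GANP and ActD, all with small changes and nearly all upwards. The number called depended on scaling and on single libraries, as given below. Calls needed an adjusted p under 0.05, from edgeR's quasi-likelihood test, with the Benjamini-Hochberg adjustment run over all 17812 genes. Called higher were 26 of 83 members after loss of NXF1 (7.4% of all tested genes were called higher), 30 after loss of GANP (10.2%) and 50 after ActD (11.2%). Called lower were 1 member in AID-NXF1 (14.1% of all tested genes), 0 in AID-GANP (18.7%; 0 members were lower at an unadjusted p under 0.05 or by DESeq2) and 1 after ActD (14.5%). In these bulk libraries a level is a share of the sampled RNA, so more transcripts of a gene and fewer of the others, or fewer cells and less RNA per cell, cannot be told apart.

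**Figure D3:**
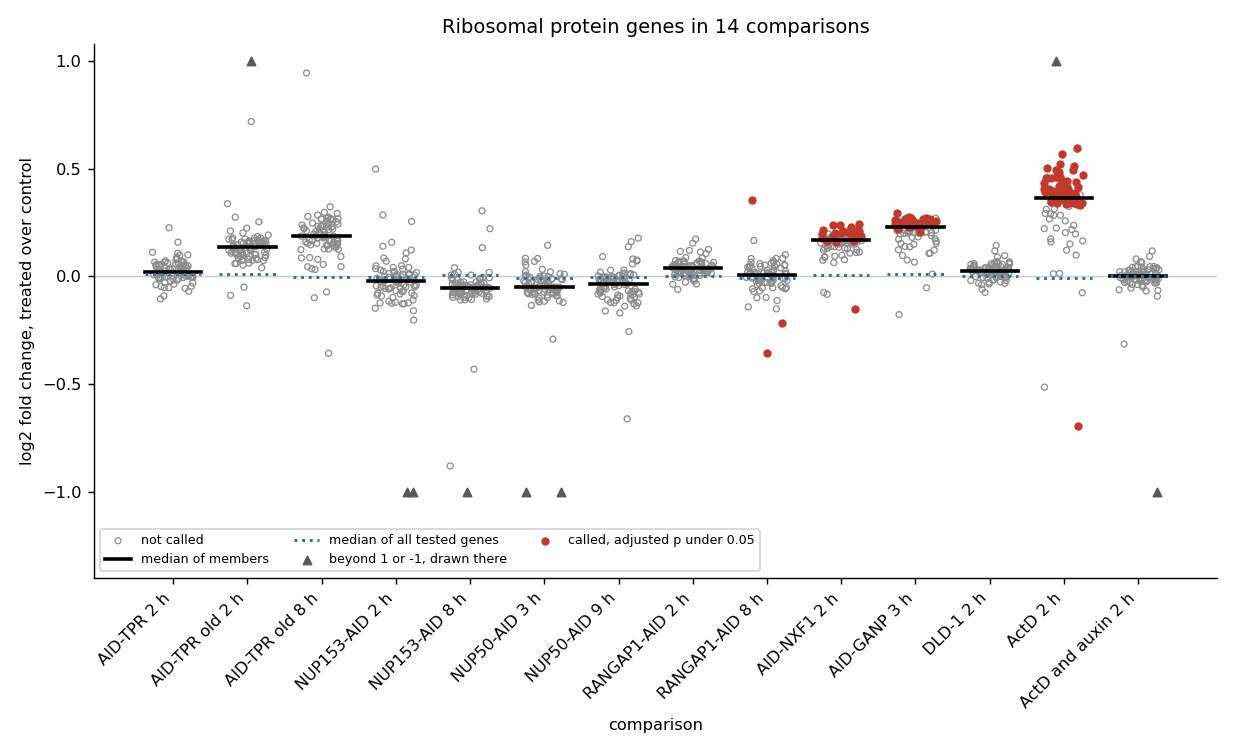
Log2 fold change (y axis, treated over control) of every member with a count in each of 14 comparisons, red where called, with the median of members (black bar) and of all tested genes (dotted). Members lie above 0 almost as a block in AID-NXF1, AID-GANP and ActD, with medians of 0.17, 0.23 and 0.36. Nearly all also lie above 0 in old AID-TPR at 2 h and 8 h, with medians of 0.13 and 0.19 and 0 called. The 8 points beyond 1 or -1 are read-through genes with means of at most 0.262 CPM.

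Loss of NXF1 for 2 h was followed by slightly higher levels over nearly the whole set. The log2 fold change was above 0 for 80 of 83 members, with a median of 0.17 (12.4%) and quartiles of 0.14 and 0.19, beside a median of 0.01 for all tested genes. Large and small subunit members had the same median of 0.17, and 14 and 13 of them were called. CPM values in the text are scaled to all counts of a library, while fold changes are on edgeR's scaled library sizes. That scaling adds 0.06 to the median log2 fold change of all genes in AID-NXF1, 0.11 in AID-GANP and 0.13 after ActD.

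RPL13 (ENSG00000167526, chr16:89560677-89564542, GRCh38), a large subunit protein, led the calls in AID-NXF1. It had 935, 904 and 890 CPM in untreated libraries 1 to 3 and 1036, 1052 and 1001 CPM with auxin. The auxin libraries all lay above the untreated ones, and the log2 fold change was 0.24 (SE 0.05, edgeR's adjusted p = 0.00927). RPL31 (ENSG00000071082, chr2:101002229-101024032), at the exit of the large subunit's peptide tunnel, had 628, 619 and 623 CPM untreated and 687, 702 and 681 CPM with auxin. These groups did not overlap either, and the log2 fold change was 0.21 (edgeR's adjusted p = 0.0113). RPL11, which with RPL5 and 5S RNA forms a particle that can stabilise p53, rose by a log2 fold change of 0.19, from 877, 853 and 859 CPM to 955, 952 and 921 CPM. RPLP0, the base of the ribosomal stalk, had 2241, 2140 and 2055 CPM untreated and 2503, 2417 and 2227 CPM with auxin. It was called (log2 fold change 0.21, edgeR's adjusted p = 0.0460) although the groups overlapped, since untreated library 1 was above auxin library 3.

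The calls in AID-NXF1 ran from a log2 fold change of 0.16 in RPS15A to 0.24 in RPS25, both of the small subunit. The auxin libraries lay wholly above the untreated ones in 28 members, as they did in 10.6% of all genes. Several members of known role had like values without passing the test: the stalk proteins RPLP1 (0.13) and RPLP2 (0.14), RPSA (0.16), also known as a laminin receptor, RPS27A (0.13), made as a fusion with ubiquitin, RPL5 (0.15), the very short RPL41 (0.17) and RPS6 (0.20). The 1 member called lower was RPS19BP1, with 73.9, 70.8 and 71.6 CPM untreated and 61.8, 62.2 and 62.9 CPM with auxin (log2 fold change -0.15, edgeR's adjusted p = 0.0445). By DESeq2 0 members were called lower in AID-NXF1. Replicate numbers paired the AID-NXF1 libraries, and with the replicate block 77 members were called, 76 higher and 1 lower, as were 17.9% and 21.1% of all genes. The count without the block rested on single libraries: it was 0 without untreated library 2, 1 without auxin library 2, 2 without auxin library 1 or untreated library 3, and 69 without auxin library 3.

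Loss of GANP for 3 h gave the same kind of shift. The log2 fold change was above 0 for 81 of 83 members, with a median of 0.23 (17.1%) and quartiles of 0.19 and 0.25, beside 0.01 for all tested genes. Medians were 0.23 in the large and 0.22 in the small subunit, with 19 and 11 members called. The auxin libraries lay wholly above the untreated ones in 19 members (9.31% of all genes), fewer than were called.

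RPL23 (ENSG00000125691, chr17:38847860-38853764), of the large subunit and like RPL11 a known binder of MDM2, had 572, 554 and 565 CPM in untreated AID-GANP libraries and 637, 605 and 623 CPM with auxin. Every auxin library was above every untreated one, and the log2 fold change was 0.25 (SE 0.07, edgeR's adjusted p = 0.0172). RPL5 rose from 836, 855 and 873 CPM to 970, 909 and 951 CPM, a log2 fold change of 0.25 (edgeR's adjusted p = 0.0217), and RPLP0 from 1713, 1600 and 1767 CPM to 1900, 1776 and 2004 CPM, one of 0.27 (edgeR's adjusted p = 0.0300). The groups did not overlap in RPL5 or RPLP0 either. Calls ran from 0.21 in RPL11 to 0.30 in RPL9. RPLP1 (0.11), RPLP2 (0.20), RPSA (0.21), RPS27A (0.20), RPL41 (0.08) and RPS6 (0.24) did not pass the test, and RPS19BP1 did not either (log2 fold change -0.18, edgeR's adjusted p = 0.124).

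These calls in AID-GANP depend on scaling and on single libraries. With library sizes alone 0 members were called higher (3.42% of all genes) and 1 lower (24.7%), and the members' median was 0.12. The auxin libraries were also deeper, at 39292870 to 47492200 counts against 26858492 to 32875244 untreated. With reads thinned to the smallest total, an alternative added after seeing the data, 35 members were called (share of all genes not given here). Replicate numbers paired these libraries too, and with the replicate block 78 members were called, 77 higher and 1 lower, as were 25.1% and 27.5% of all genes. Without the block the count was 0 without untreated library 2, 2 without auxin library 3, 4 without untreated library 1, 13 without auxin library 1 and 45 without auxin library 2.

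ActD for 2 h gave the largest median of the 14 comparisons. The log2 fold change against untreated old AID-TPR was above 0 in 79 of the 82 members with a count, with a median of 0.36 (28.7%) and quartiles of 0.29 and 0.42, beside -0.01 for all tested genes. Of the 50 members called higher, 35 also had a fold of at least 1.3, which 8.79% of all genes reached. The ActD libraries lay wholly above the untreated ones in 39 members (11.9% of all genes). Called were 33 large and 18 small subunit members, with medians of 0.37 and 0.35. The ribosomal protein share of all counts was 8.18%, 8.91% and 7.91% with ActD and 7.44%, 7.03% and 7.01% untreated, so the groups did not overlap. In AID-NXF1 (6.97%, 6.94% and 6.44% against 6.50%, 6.35% and 6.07%) and AID-GANP (5.69%, 5.58% and 6.09% against 5.18%, 5.28% and 5.61%) they did. Within each replicate number of these lines, though, the auxin library had the higher share. The shares were not tested.

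RPL27 (ENSG00000131469, chr17:42998273-43002959), of the large subunit, had 517, 476 and 472 CPM untreated and 636, 698 and 655 CPM with ActD. The log2 fold change was 0.57 (SE 0.10, edgeR's adjusted p = 0.00304). RPL39 (ENSG00000198918, chrX:119786504-119791630), a very short protein of the peptide tunnel, had 277, 275 and 239 CPM untreated and 362, 397 and 334 CPM with ActD, the highest called value at 0.60 (edgeR's adjusted p = 0.00345). The ActD libraries were above every untreated one in both genes. RPLP0 (0.47), RPSA (0.41), RPL5 (0.40), RPL41 (0.35), RPS6 (0.35) and RPL11 (0.34) rose too, and RPS9 had the lowest value among those called higher, 0.33.

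The rest of the stalk did not pass the test after ActD: RPLP2 had a log2 fold change of 0.20, and RPLP1 had 685, 760 and 877 CPM untreated against 625, 677 and 716 CPM with ActD. RPS27A (0.29, edgeR's adjusted p = 0.0504) just missed the threshold. RPS16, of the small subunit, varied widely among libraries, from 336, 420 and 955 CPM untreated to 243, 200 and 648 CPM with ActD (log2 fold change -0.51, SE 0.47), and was not called. The 1 member called lower was RPL36A, at 8.80, 9.88 and 5.87 CPM untreated and 5.41, 3.77 and 4.64 CPM with ActD (log2 fold change -0.69, edgeR's adjusted p = 0.0360), in libraries where its level is 23.1 times below that of the other label set. With reads thinned to the smallest total that call was lost, while 49 members were called in all (share of all genes not given here). No fit with the replicate block was possible, since ActD and old libraries share no replicate number. With library sizes alone 13 members were called, 12 higher and 1 lower, as were 4.69% and 19.4% of all genes. The count was 8 without old2, 21 without old3, 22 without ActD library 1 and 26 without ActD library 2. ActD libraries held 25130610 to 55411411 counts against 23084890 to 27916215 in the untreated old ones, and no source used here says that both were grown together, so treatment and label set cannot be told apart.

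**Figure D4:**
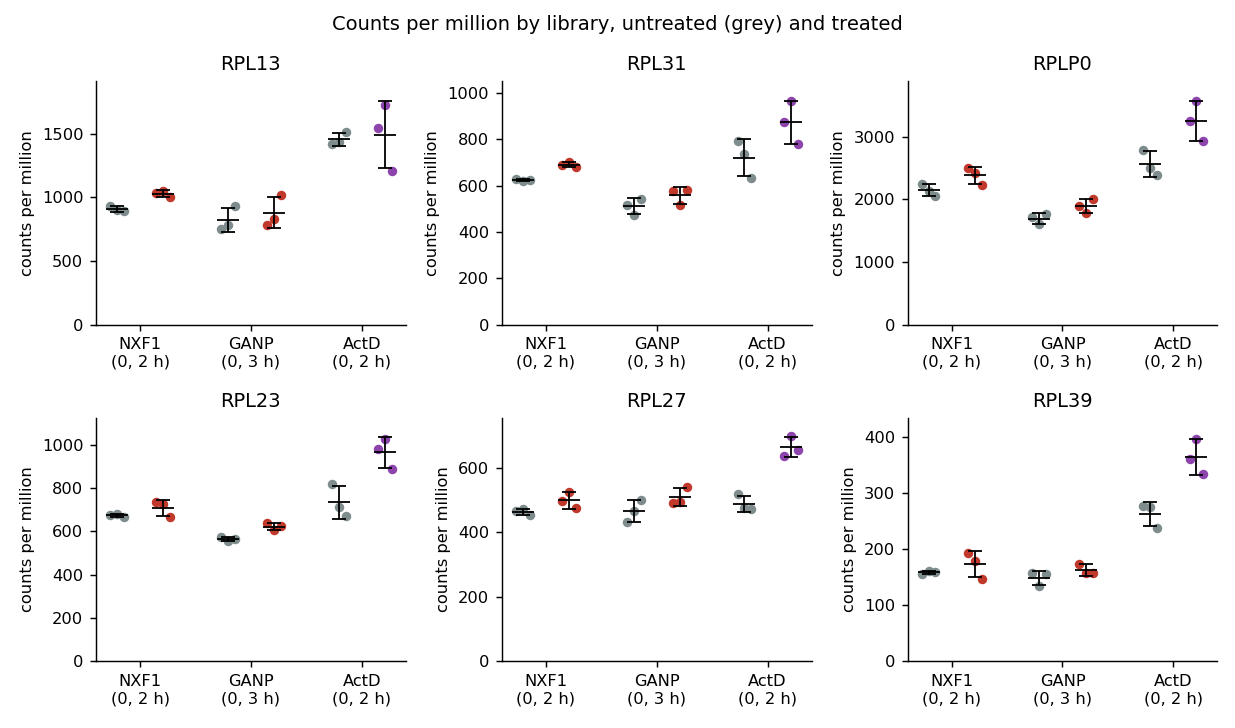
CPM (y axis) in each library of RPL13, RPL31, RPLP0, RPL23, RPL27 and RPL39 in AID-NXF1, AID-GANP and ActD with their untreated libraries, with the mean and SD of 3 libraries. RPL27 and RPL39 had the largest folds of the genes plotted, both after ActD, and RPL27 went from 472 to 517 CPM to 636 to 698 CPM.

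Auxin on top of ActD left no called difference. The median log2 fold change against ActD alone was 0.00 and 43 of 82 members were above 0. Called were 0 members (0% of all genes), also at an unadjusted p under 0.05 (0.438% of all genes) and by DESeq2. RPL27 had 664, 661 and 642 CPM and RPL39 353, 375 and 329 CPM, within or next to the range of ActD alone.

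Many of the members called higher were called in more than 1 of these comparisons. Of 83 members, the lists held 26 in AID-NXF1, 30 in AID-GANP and 50 after ActD. Whether they shared more members than lists of that size would was not tested. AID-NXF1 and AID-GANP shared 12, which is 46.2% of the first and 40% of the second list. AID-NXF1 and ActD shared 14 (53.8% and 28%), and AID-GANP and ActD shared 23 (76.7% and 46%). All 3 shared 8 members, among them RPL6, RPL11, RPL23A, RPLP0, RPS12, RPS13 and RPS25. Across 76 members, without read-through genes, their partners and RPS19BP1, the log2 fold changes of AID-NXF1 and AID-GANP had a Pearson correlation of 0.754 and a Spearman correlation of 0.626. With ActD these were 0.504 and 0.170 for AID-NXF1 and 0.591 and 0.417 for AID-GANP. These describe genes of 1 family, which share depth and scaling in each library and are not independent.

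Loss of TPR did not give called changes. After 2 h the median was 0.02 and 57 of 83 members were above 0, with 0 called (0.662% of all genes), 0 at an unadjusted p under 0.05 (9.43%) and 0 by DESeq2. RPLP0 had 1940, 2136 and 2099 CPM untreated and 2039, 2053 and 2008 CPM with auxin, and RPL31 496, 521 and 505 CPM against 499, 497 and 482 CPM, with overlap in both. In the old set at 2 h 79 of 82 members were above 0. Called were 0 (0.455%), with 0 at an unadjusted p under 0.05 (12.1%) and 0 by DESeq2. The median was 0.13. That median was 0.05 without old2 and 0.22 without old3 of the auxin libraries, and 0.027 with library sizes alone. At 8 h it was 0.19 with 79 of 82 members above 0. Here too 0 were called (3.63%) and 0 by DESeq2, but 24 had an unadjusted p under 0.05, all higher. The share of all genes was 24.2%, but it counts either direction, and the share that was higher is not given here. RPS27A came nearest, with 1631, 1588 and 1480 CPM untreated and 1791, 1655 and 1759 CPM with auxin (log2 fold change 0.28, edgeR's adjusted p = 0.0883). Without old2 of the auxin libraries 5 members were called, and with library sizes alone the 8 h median was 0.06.

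Whether AID-NXF1 and AID-GANP differed from AID-TPR was tested as the difference of log2 fold changes. Only the AID-TPR set without the label old was used. AID-GANP had 3 h of auxin and the other lines 2 h, so line and time cannot be told apart where it is compared. The median difference was 0.13 for AID-NXF1 and 0.19 for AID-GANP, with 0 members called in either by edgeR (2.28% and 5.77% of all genes). At an unadjusted p under 0.05 there were 8 and 24 members, and DESeq2 called 1 and 8. The shares of all genes at these settings are not given here, so these counts are not read as a result about the members. Replicate numbers paired all 3 lines, and with the replicate block 23 and 49 members differed, all with the higher value in AID-NXF1 or AID-GANP, a direction called in 3.49% and 6.54% of all genes. AID-GANP and AID-NXF1 differed in 0 members by edgeR (2.62%), by DESeq2 or at an unadjusted p under 0.05, and in 6 with the replicate block (15.1% of all genes).

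Loss of NUP153 or NUP50 gave medians close to 0, on the lower side. In NUP153-AID 52 of 83 members were below 0 at 2 h and 74 at 8 h. In NUP50-AID 67 of the 82 members with a count were below 0 at 3 h and 63 at 9 h. In NUP153-AID the medians were -0.02 at 2 h and -0.05 at 8 h. Called were 0 members at 2 h (0.0393%) and 0 at 8 h (1.92%). At an unadjusted p under 0.05 there were 7 (3.74% of all genes) and 1 (13.8%), and DESeq2 called 1 and 0. The replicate numbers paired the 2 h libraries, and with the replicate block 2 members were called higher there (1.8% of all genes). In NUP50-AID the medians were -0.05 at 3 h and -0.04 at 9 h, with 0 called at both times (0.241% and 0.528%), 0 by DESeq2, and 0 and 2 at an unadjusted p under 0.05 (6.15% and 16.5%). Between 3 h and 9 h 0 members differed (0.269%), and between 2 h and 8 h in the old AID-TPR set also 0 (0%), both with 0 at an unadjusted p under 0.05 and 0 by DESeq2.

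After RANGAP1 loss 3 members were called at 8 h and 0 at 2 h. At 2 h the median was 0.04 with 0 called (0.595%), 0 by DESeq2 and 0 at an unadjusted p under 0.05 (7.28%). At 8 h the median was 0.01, and 1 member was called higher (13.6% of all genes) and 2 lower (13%). RPL28, of the large subunit, had 126, 135 and 174 CPM untreated, 125, 122 and 214 CPM at 2 h and 100.2, 114 and 116 CPM at 8 h (8 h log2 fold change -0.35, edgeR's adjusted p = 0.0348). RPL3, which lies near the peptidyl transferase centre, had 835, 826 and 943 CPM untreated, 856, 816 and 1094 CPM at 2 h and 699, 720 and 761 CPM at 8 h (-0.21, edgeR's adjusted p = 0.0483). In both genes every 8 h library was below every untreated one, and library 3 was the highest untreated and 2 h library. RPS19BP1 had 70.3, 70.6 and 65.4 CPM untreated, 68.3, 67.8 and 69.4 CPM at 2 h and 85.8, 84.7 and 85.9 CPM at 8 h (0.35, edgeR's adjusted p = 0.00362). The replicate numbers paired these libraries, and with the replicate block 6 members were called, 2 higher and 4 lower, as were 24.5% and 23.7% of all genes. Leaving out auxin library 1 or 2 or untreated library 2 or 3 left 1 call.

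The 8 h and 2 h libraries of RANGAP1-AID were also compared directly. RPL3 was lower at 8 h (difference -0.34, edgeR's adjusted p = 0.0389) and RPS19BP1 higher (0.32, edgeR's adjusted p = 0.00630), which makes 2 members against 16.4% of all genes. RPS19BP1 was also the 1 member that differed between times in NUP153-AID (3.62% of all genes), with 88.4, 92.3 and 80.1 CPM at 2 h and 102, 121 and 109 CPM at 8 h (0.31, edgeR's adjusted p = 0.0315). With the replicate block 8 members differed between the times in RANGAP1-AID, 1 higher and 7 lower, as did 19.5% and 19.1% of all genes.

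In parental DLD-1 cells, whose labels are in doubt, the median was 0.03. Called were 0 members (0.0786% of all genes) and 0 by DESeq2, with 1 at an unadjusted p under 0.05 (3.13%).

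Second genes were set beside the gene they resemble. RPS27 rose in AID-NXF1 (0.22) and AID-GANP (0.23), while RPS27L, a p53 target, had 0.10 in both and did not pass. After ActD both had 0.31 and neither passed. RPL36AL had 0.09 and 0.01 in AID-NXF1 and AID-GANP, beside 0.18 for RPL36A in both, of which RPL36A in AID-NXF1 passed. After ActD RPL36AL rose by 0.38 on the log2 scale. RPL3 rose in AID-NXF1 (0.21), with 0.25 and 0.38 in AID-GANP and ActD without passing, and RPL10, of the large subunit, rose after ActD (0.45), with 0.12 and 0.20 in the other two. RPL39 had 0.18 and 0.23 in AID-NXF1 and AID-GANP and did not pass. RPL3L, RPL10L and RPL39L were too low to enter the fits. In AID-NXF1 RPS10 (0.24) and RPS10-NUDT3 (0.23), and RPL17 and RPL17-C18orf32 (0.20 each), overlap and had nearly the same CPM, so they are not separate evidence. The differences within these pairs were not tested.

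Ribosomal components under other symbols had like values. RACK1, a scaffold on the small subunit, rose in AID-NXF1 (0.20), AID-GANP (0.24) and ActD (0.42). FAU, which makes a small subunit protein fused to a ubiquitin-like sequence, rose after ActD (0.45) and had 0.17 in AID-NXF1 and 0.20 in AID-GANP without passing.

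Translation factors known for TOP tracts had medians near those of the ribosomal proteins. The shares of all genes called higher were 7.4% in AID-NXF1, 10.2% in AID-GANP, 11.2% after ActD and 13.6% in RANGAP1-AID at 8 h. Called higher were 7 of 16 translation factors in AID-NXF1 (median 0.17), 9 in AID-GANP (0.24) and 8 of 15 after ActD (0.34), and 0 were called lower. EIF4B, an initiation factor, rose in all 3 (0.28, 0.26 and 0.38), as did TPT1, a growth-related protein (0.17, 0.25 and 0.51). PABPC1, the poly(A) binding protein, had 0.00, 0.10 and -0.42 and did not pass. Of 30 ribosome assembly factors 6 were higher and 3 lower in AID-NXF1 (median 0.05), 3 and 1 in AID-GANP (0.12) and 4 and 0 after ActD (0.16). In RANGAP1-AID at 8 h 12 of them were higher and 1 lower (median 0.17), among them TSR2 (0.53) and PNO1 (0.52), while 0 translation factors were called. Of 78 mitochondrial ribosomal protein genes 7 were higher and 3 lower in AID-NXF1 (median 0.09), 10 and 3 in AID-GANP (0.07) and 23 and 1 after ActD (0.23). Differences between these lists and the members were not tested.

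**Figure D5:**
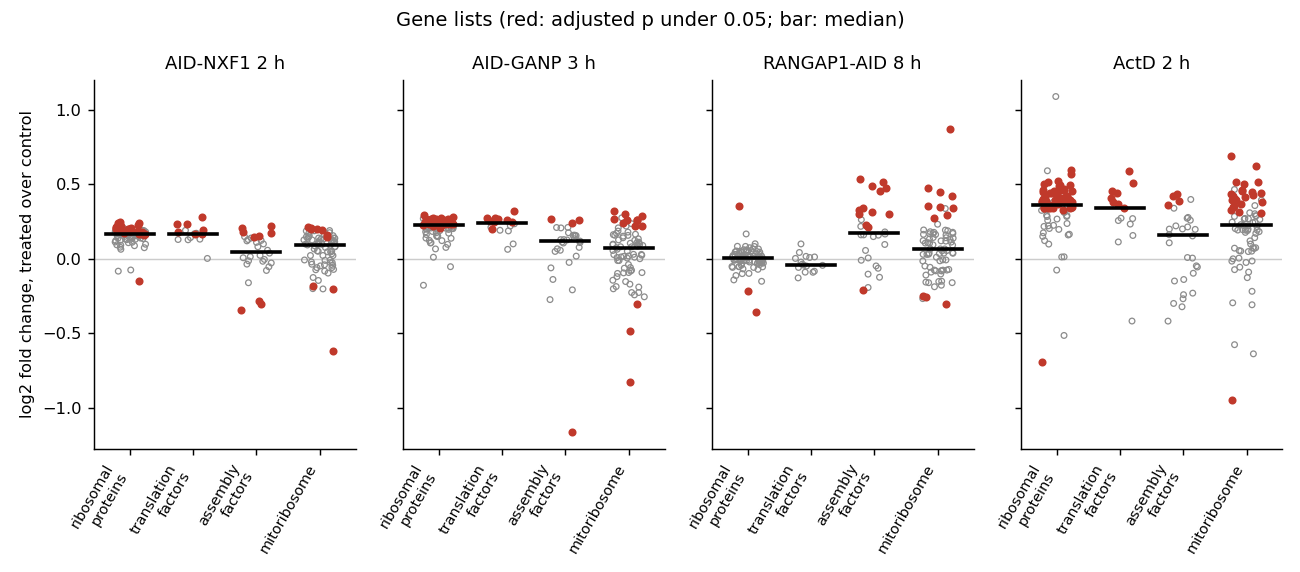
Log2 fold change (y axis) of each gene in 4 comparisons for ribosomal protein genes, translation factors, ribosome assembly factors and mitochondrial ribosomal protein genes, red where called, with the median as a bar. After ActD the medians were 0.36, 0.34, 0.16 and 0.23 in that order.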

How the data were processed

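RNA sequencing of rRNA-depleted total RNA gave 1 file of raw counts per gene for each of 66 libraries. Per the labels, the authors used CASAVA 1.8.2, STAR 2.6.1c and featureCounts 1.5.2 with GRCh38, and deposited counts that are not normalized. The study's methods name other versions of STAR and featureCounts. Genes were named through GENCODE 44 (56948 of 58051 identifiers matched). Groups came from the labels, with 3 libraries each. The members and gene lists were chosen with earlier results of these data known.

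Each comparison was fitted on its own 6 libraries with edgeR 4.0.16 (TMM, quasi-likelihood test, limma 3.58.1, R 4.3.3), over the 17812 genes that passed 1 CPM in above 5% of the 60 ActD-free libraries. A difference between lines was an interaction term, and one between times a direct contrast. Totals of 18943661 to 55411411 counts leave little counting error for most members. Named were, per comparison, the 2 called members of smallest p in each direction whose groups did not overlap, fixed members of known role, second genes and read-through genes with their partners, and FAU and RACK1. Some genes that met this rule are not reported here. RPS16, RPS15A, RPS25, RPS9, RPL9, RPL6, RPL23A, RPS12, RPS13, RPL26 and RPS23 were named after their values were seen.

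Replicate numbers were taken to pair the libraries where deviations of same-numbered libraries correlated above 0.1 in every pair, over genes with a mean count of at least 50. This held in 7 of 13 comparisons (0.216 to 0.495 in AID-NXF1, 0.496 to 0.588 in AID-GANP). Alternatives were RLE and plain library sizes, no filter, DESeq2 1.42.0, fold limits, the replicate block and leaving out each library. The edgeR steps were tested on simulated data. Figures were drawn with matplotlib 3.10.9.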

Additional observations from a re-analysis of the deposited data

Results flagged for a closer look

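In 3 cases a member's log2 fold change differed between times of 1 line by edgeR's quasi-likelihood test of the difference with Benjamini-Hochberg adjustment. RPL3 was lower at 8 h than at 2 h in RANGAP1-AID by -0.34 (adjusted p = 0.0389). RPS19BP1, which matches the family by its symbol but is no ribosomal protein, was higher at 8 h than at 2 h by 0.32 in RANGAP1-AID (adjusted p = 0.00630) and by 0.31 in NUP153-AID (adjusted p = 0.0315). With 3 libraries in each group, no test for a single value far from its group was run.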

How the results depend on the processing

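Of 87 alternative medians 84 moved by less than the spread of the members' median between libraries, and 82 of 101 alternative counts stayed within 1.5 times. The 82 include counts of 0 that stayed at 0, so they do not show that the calls in AID-NXF1, AID-GANP and ActD were stable. The counts of those comparisons moved widely, as given below. That spread was wide against the smaller medians: leaving out 1 library took them from -0.03 to 0.05 in AID-TPR at 2 h, -0.05 to 0.11 and -0.08 to 0.08 in RANGAP1-AID at 2 h and 8 h, and -0.04 to 0.06 for ActD with auxin, so these have no stable direction. With library sizes alone, the calls were 11 in AID-NXF1, 1 in AID-GANP (lower) and 13 after ActD, and the medians 0.057 in old AID-TPR at 8 h, 0.12 in AID-GANP and 0.24 after ActD. Relative to the median of all genes, which this scaling shifts by up to -0.13, the members' medians were then 0.16 in AID-NXF1, 0.22 in AID-GANP and 0.37 after ActD. Asking also for a fold past 1.3 or 0.7 left 0 calls in AID-NXF1, AID-GANP and RANGAP1-AID at 8 h. Without the filter there were 62 calls in AID-NXF1, 1 each in NUP153-AID (2 h, 8 h) and NUP50-AID (3 h, 9 h), 1 each in the differences of AID-NXF1 and AID-GANP from AID-TPR, and 4 between times in NUP153-AID. DESeq2 called 51 members in AID-NXF1 and 51 in AID-GANP, all higher. It called 1 in NUP153-AID at 2 h, 1 and 8 in the differences from AID-TPR, and 3 between times in NUP153-AID. For counts by DESeq2, without the filter, with thinned reads or with 1 library left out, the shares of all genes are not given here. Those counts show only how far the calls move. With the replicate block the counts were 77 in AID-NXF1, 78 in AID-GANP, 6 in RANGAP1-AID at 8 h, 2 in NUP153-AID at 2 h, 23 and 49 in the differences from AID-TPR, 6 between AID-GANP and AID-NXF1 and 8 between times in RANGAP1-AID. The block also gave 1 call in NUP50-AID at 9 h, where the libraries share only a number (correlations 0.611, 0.0826 and 0.480), and it moved no other count. Leaving out 1 library gave 0 to 69 calls in AID-NXF1, 0 to 45 in AID-GANP, 8 to 53 after ActD, 0 to 5 in old AID-TPR at 8 h, 1 to 2 in RANGAP1-AID at 8 h, 0 to 2 in the difference of AID-GANP from AID-TPR, and 0 to 1 and 1 to 2 between times in NUP153-AID and RANGAP1-AID. The medians then ran from 0.13 to 0.22, 0.17 to 0.28 and 0.31 to 0.42 in AID-NXF1, AID-GANP and ActD. Without read-through genes and RPS19BP1, added after seeing the data, 24, 29 and 51 members were called there. The cause of these moves was not tested.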
